A study of Caenorhabditis elegans with 8 samples.

Results

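The dod genes of Caenorhabditis elegans take their name from the phrase downstream of DAF-16. The 9 dod genes described here (dod-3, dod-6, dod-17, dod-19, dod-20, dod-21, dod-22, dod-23 and dod-24) were all found by gene identifier among the 46916 genes of the table. A mean of at least 10 normalised read counts over the 8 libraries, required for a gene to be tested, was reached by 6 of the 9 and by 13276 of all genes. The members below it were dod-20, dod-21 and dod-23. One further gene with the same name stem, dod-18, was not among the 9 and is given only as a comparison.

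The animals were starved larvae of the first stage, hatched without food after bleaching and crosslinked with ultraviolet light. The mutant strain, neural ADR-1;adr-2(-), carried the adr-2(ok735) deletion and therefore lacked ADR-2, the only adenosine-to-inosine RNA editing enzyme of this nematode. The control strain, neural ADR-1, kept adr-2. In both strains the animal's own adr-1 was deleted (tm668), and 3XFLAG-tagged ADR-1, an RNA-binding relative of ADR-2 without editing activity, was supplied by an extrachromosomal transgene, which dividing cells can lose, under the neural rab-3 promoter together with a GFP transgene, so ADR-1 was tagged in neurons only. RNA was sequenced from the anti-FLAG immunoprecipitate (IP) and from the whole-animal lysate before it (input), with 2 biological replicates of each, giving 4 groups of 2 libraries: adr-2(-) input, control input, adr-2(-) IP and control IP. No IP from animals without tagged ADR-1 was analysed here, so an IP value holds RNA bound to ADR-1 and any RNA carried along. Because the inputs are bulk samples, fewer cells of a type and less RNA per cell cannot be told apart.

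DAF-16 is the FOXO transcription factor of the insulin pathway. When insulin signalling through the receptor DAF-2 is low, DAF-16 enters the nucleus and binds the DAF-16 binding element (DBE), and its class 1 targets, among them dod-3 and dod-6, are expressed more. The class 2 genes, among them dod-17 and dod-19 to dod-24, are expressed less under the same conditions, and many of them carry the DAF-16 associated element (DAE), through which the zinc finger factor PQM-1 is thought to act in the intestine. Several class 2 dod genes encode secreted proteins with a CUB-like domain and are induced in the intestine by bacterial infection, and dod-24 is in use as a reporter gene of this kind.

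By the RefSeq annotation dod-17, dod-21, dod-22 and dod-24 encode CUB-like domain proteins, dod-19 a protein with an IgGFc-binding domain and dod-6 a protein with a ShKT domain. The products of dod-3, dod-20 and dod-23 are described by their regulation alone. In the WBcel235 assembly (ce11) the 4 CUB-like members lie on 1 stretch of chromosome IV, with dod-21 at chrIV:12936738-12937988 on the plus strand, dod-24 at chrIV:12940106-12941354 on the minus strand, dod-22 at chrIV:12965374-12967392 and dod-17 at chrIV:12976303-12978343, both on the plus strand. On chromosome V lie dod-19 (chrV:411782-414759, minus), dod-20 (chrV:422433-424177, plus) and dod-3 (chrV:2730622-2731098, minus). Alone on their chromosomes are dod-6 (chrIII:10197716-10198352, plus) and dod-23 (chrII:8398161-8399164, minus).

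The promoters were searched on both strands for the DBE, written here as GTAAACA, and the DAE, CTTATCA, because these elements are associated with class 1 and class 2 genes. The reverse complement of the DAE, TGATAAG, overlaps the GATA site bound by intestinal factors such as ELT-2, so a match cannot be assigned to either. In the window of 300 bases (250 before and 50 after the annotated start), 5 of the 9 members held a DAE (dod-3, dod-19, dod-20, dod-21 and dod-22) and 1 held a DBE (dod-3). Among all 19963 protein-coding genes 9.18% held a DAE and 4.78% a DBE in the same window, and of the 49 genes annotated as CUB-like 44.9% held a DAE and 4.08% a DBE. In the 1000 bases before the start, a window added after the first was seen, 8 of 9 members held a DAE, all but dod-17. This compares with 20.5% of all genes and 63.3% of the 49 annotated CUB-like genes. A DBE was held by 2 members, dod-3 and dod-22, against 13.5% of all genes and 14.3% of the CUB-like genes. The matches are shown for the members whose inputs are described next, each on the gene's own strand with the motif in capitals.
dod-24, DAE on the opposite strand 900 bases before the start, chrIV:12942237-12942265: tcaacacaaacTGATAAGtgttttctggg
dod-22, DAE on the opposite strand 515 bases before the start, chrIV:12964848-12964876: cgcagtttcacTGATAAGttatgagtatt
dod-22, DAE on the opposite strand 5 bases before the start, chrIV:12965358-12965386: gatttcatagtTGATAAGaagcttcaacc
dod-22, DBE 396 bases before the start, chrIV:12964967-12964995: agattccacctGTAAACAttttaagatga
dod-19, DAE 81 bases before the start, chrV:414823-414851: gatattttaagCTTATCAtctttttttca
dod-3, DAE 148 bases before the start, chrV:2731229-2731257: cgaccaggagtCTTATCAgttttcgggtc
dod-3, DBE on the opposite strand 50 bases before the start, chrV:2731131-2731159: ttacgtgataaTGTTTACcccgcgggtgt
dod-6, DAE 662 bases before the start, chrIII:10197043-10197071: cagaaaaatatCTTATCAaccggagaaca
No match in a window says only that these letters are absent from it, as for dod-17.

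Recovered reads numbered from 2595323 to 2816378 in the adr-2(-) inputs, from 2939870 to 2969937 in the control inputs, from 20950841 to 79185012 in the adr-2(-) IPs and from 45578008 to 48003970 in the control IPs. One read was worth 6.40 and 8.91 normalised counts in the adr-2(-) inputs, against 3.01 and 2.63 in the control inputs. The ribosomal RNA gene rrn-3.1 took 32.9% and 44.6% of recovered reads in the adr-2(-) inputs, against 30.6% and 16.8% in the control inputs. Shares of all recovered reads given below include it, so they move with its level. The normalised values of all genes summed to 18034400 and 23114800 in the adr-2(-) inputs and to 8933510 and 7746400 in the control inputs, so the size factors applied by the authors decide part of any input difference. The median log2 change of all tested genes between the inputs was 0.01 on the deposited scale, -1.25 once every library was rescaled to the same total, and -0.89 when the 10 most abundant genes were first left out. All 9 members were in rows whose values matched their deposited mean.

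The inputs were compared to ask whether dod transcripts differ between starved larvae with and without adr-2. On the deposited scale the 3 expressed CUB-like members were 5.57-fold to 7.13-fold higher in adr-2(-) inputs, dod-19 and dod-3 were 2.22-fold and 2.29-fold higher, and dod-6 was 1.33-fold higher with overlapping groups. By the limma test over all genes, 1 member of 6, dod-22, passed an adjusted p of 0.05 with a log2 change of at least 1, where 5.03% of all tested genes were called higher and 9.36% lower. Both adr-2(-) inputs exceeded both control inputs for 5 of 6 members, as they did for 38.3% of all tested genes, and for 0 members did both lie below, against 37.1%. The median log2 change of the 6 was 1.85.

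dod-24, the reporter gene among the CUB-like members, had 3861 and 3839 normalised counts in adr-2(-) inputs, against 575 and 506 in control inputs. Both adr-2(-) libraries lay far above both control libraries, and the replicates of each strain lay close together. These values rested on 603 and 431 reads in adr-2(-) inputs and on 191 and 192 reads in control inputs. As shares of all recovered reads, given as RPM (reads scaled to a common total), they were 214 (95% Wilson interval 198 to 232) and 166 (151 to 183) RPM in adr-2(-) inputs, against 64.3 (55.8 to 74.1) and 65.3 (56.7 to 75.2) RPM in control inputs, so the groups stayed apart beyond counting error on this scale, at 2.93-fold. Intervals of this kind cover counting error only, since copies made by PCR are not independent molecules. The log2 change on the deposited scale was 2.83 (SE 0.88, 95% interval 0.83 to 4.84), with an adjusted p of 0.0632 from limma, just outside the threshold.

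dod-22, a CUB-like gene that lies between other CUB-like genes, had 826 and 713 normalised counts in adr-2(-) inputs (129 and 80 reads), against 144 and 132 in control inputs (48 and 50 reads). The groups did not overlap. Its log2 change was 2.47 (SE 0.64, adjusted p 0.0378 from limma). The call was lost when any of the 4 inputs was left out, each lone input being assumed to vary like the other groups. The log2 change of dod-22 was then 2.36 to 2.57, and calls over all tested genes fell in those fits too.

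dod-17, the last CUB-like member of the stretch, had 480 and 543 normalised counts in adr-2(-) inputs (75 and 61 reads), against 90.2 and 71.1 in control inputs (30 and 27 reads). Again the groups were well apart in the inputs. Its log2 change of 2.66 had the widest error of the 6 members (SE 1.14, adjusted p 0.144 from limma), because the fit shares one spread over all groups and the 2 control IPs of dod-17 were at 131 and 6.28.

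The shared spread mattered for the other members as well. With either control IP left out, dod-24, dod-22, dod-17 and dod-19 were all called higher in adr-2(-) inputs, with adjusted p-values from limma of 0.0032 to 0.0296, but those fits also called 1549 to 1567 of the 13276 genes higher and 2050 to 2070 lower, against 668 and 1243 with all libraries. A fit to the 4 inputs alone, added after the data were seen, called 5 of 6 members (dod-24, adjusted p 2e-05 from limma, dod-22 4.88e-05, dod-17 9.94e-05, dod-19 0.000134 and dod-3 0.00378), but it also called 17.2% of all tested genes higher and 17.6% lower. DESeq2 on the recovered reads called the 3 CUB-like members (adjusted p 0.00389 for dod-24, 0.0027 for dod-22 and 0.0313 for dod-17) with 7.4% of all tested genes higher and 9.15% lower.

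**Figure D1:**
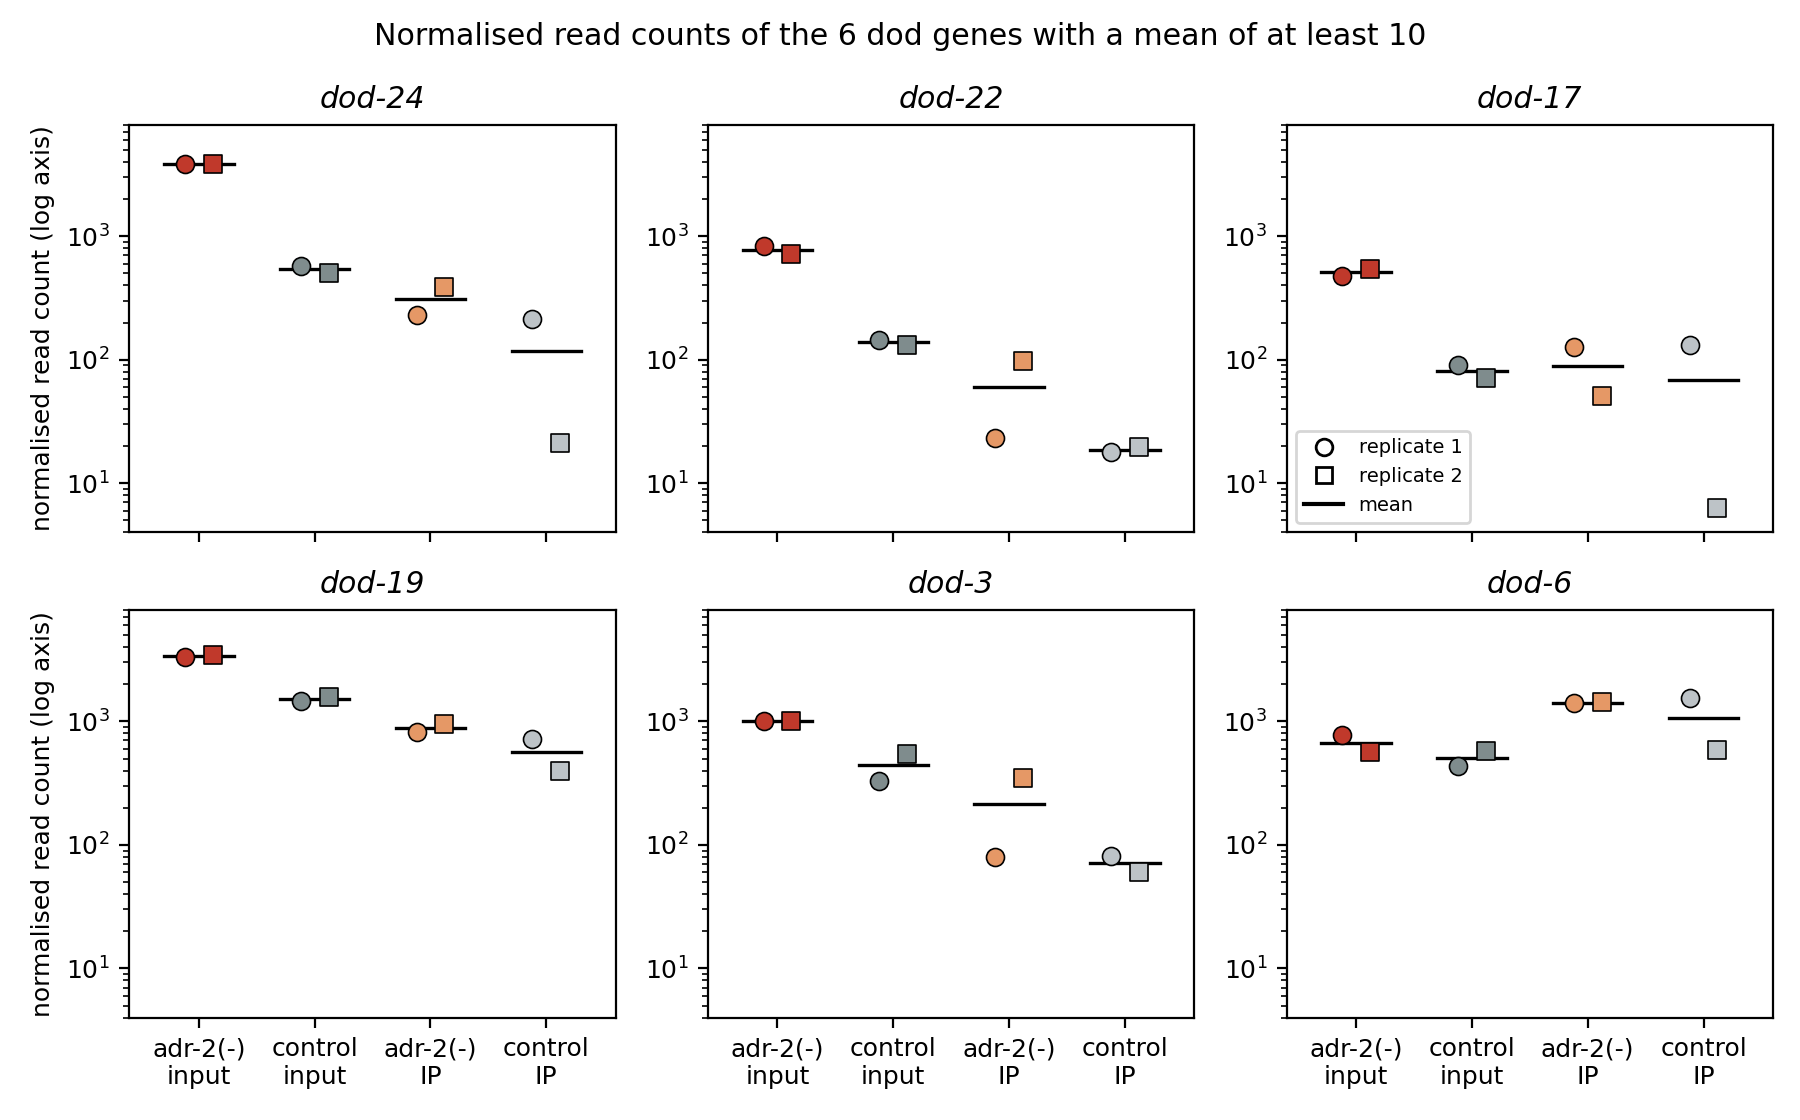
Normalised read counts (log axis) of the 6 dod genes with a mean of at least 10, in each of the 8 libraries; circles are replicate 1, squares replicate 2 and lines the group means. For dod-24, dod-22, dod-17, dod-19 and dod-3 both adr-2(-) inputs lie above both control inputs, while control IP 2 lies far below control IP 1 for dod-24 (21.3 against 216) and dod-17.

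dod-19, the class 2 gene with an IgGFc-binding domain, had 3349 and 3447 normalised counts in adr-2(-) inputs, against 1471 and 1589 in control inputs. The groups were apart, with a log2 change of 1.15 (SE 0.35, adjusted p 0.0611 from limma). As shares of all reads, however, its 186 and 149 RPM in adr-2(-) inputs lay beside 165 and 205 RPM in control inputs, and the groups overlapped. Those shares depend on rrn-3.1, whose part of the reads was uneven among the inputs. With the 10 most abundant genes left out of the totals, the log2 change of dod-19 was 0.23.

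dod-3, a class 1 gene, had 1005 and 1006 normalised counts in adr-2(-) inputs, against 331 and 548 in control inputs, and a log2 change of 1.24 (SE 0.64, adjusted p 0.211 from limma). Its shares of all reads overlapped, at 55.7 and 43.5 RPM in adr-2(-) inputs and 37.0 and 70.8 RPM in control inputs. dod-6, the other class 1 gene, had 775 and 570 normalised counts in adr-2(-) inputs, against 436 and 577 in control inputs, so its groups overlapped already on the deposited scale (log2 change 0.40, SE 0.46, adjusted p 0.566 from limma). As a share of all reads dod-6 was lower in both adr-2(-) inputs, at 43.0 and 24.7 RPM, than in the control inputs, at 48.8 and 74.5 RPM.

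Rescaling split the members. With every library set to the same total, dod-24, dod-22 and dod-17 kept log2 changes of 1.54, 1.18 and 1.37 and groups that did not overlap, whereas dod-19, dod-3 and dod-6 were at -0.14, -0.06 and -0.89. On that scale 3 of 6 members had both adr-2(-) inputs above both control inputs, against 9.21% of all tested genes, and 1, dod-6, had both below, against 68.8%. By limma 0 members were called on that scale, where 0.271% of all tested genes were called higher and 32.2% lower (adjusted p 0.148 for dod-24, 0.292 for dod-22 and 0.285 for dod-17). With the 10 most abundant genes left out of the totals, the log2 changes were 1.91 for dod-24, 1.54 for dod-22, 1.74 for dod-17, 0.23 for dod-19, 0.31 for dod-3 and -0.52 for dod-6. Under each of the 3 scalings all 6 members lay above the median of all tested genes. Rescaling moves all genes nearly alike, so this place carries over from the deposited scale and is not separate support.

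**Figure D2:**
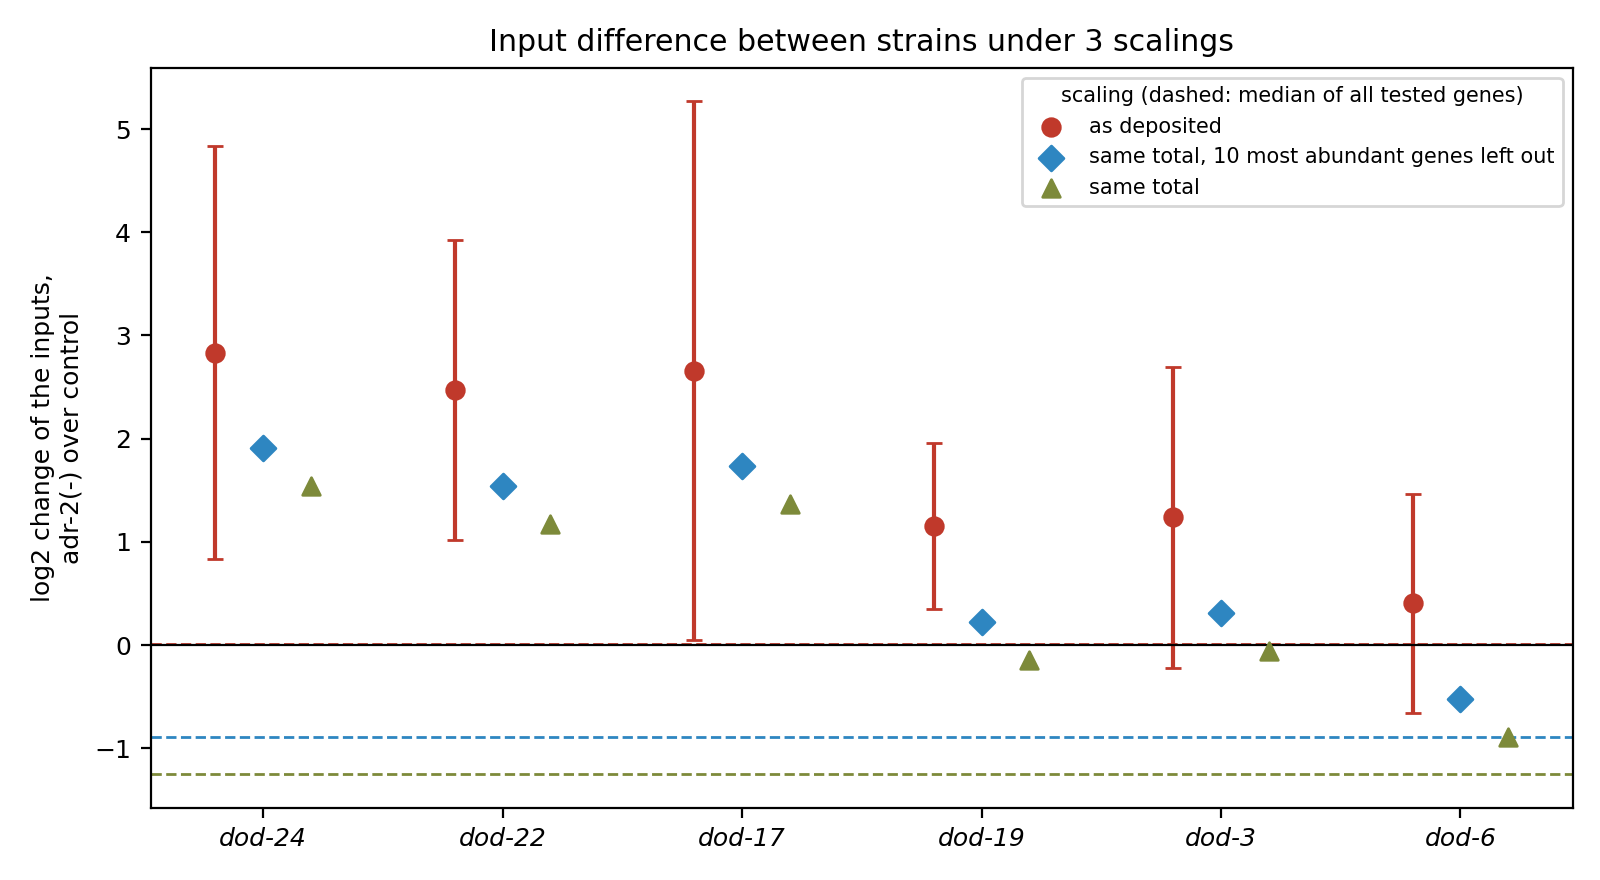
Log2 change of the inputs, adr-2(-) over control, of the 6 tested dod genes on the deposited scale (red, with 95% intervals from limma), at the same total without the 10 most abundant genes (blue) and at the same total (green); dashed lines are the medians of all tested genes (0.01, -0.89 and -1.25). The CUB-like genes dod-24, dod-22 and dod-17 stay above 0 in all 3, while dod-19, dod-3 and dod-6 lie below 0 at the same total.

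The 3 low members gave little. dod-20, a class 2 gene near dod-19, had 0 and 1 reads in adr-2(-) inputs and 0 and 0 reads in control inputs. In the deeper IPs it had 29 and 20 reads in adr-2(-) and 16 and 7 reads in the control, or 4.38 and 6.49 against 3.87 and 1.29 normalised counts, so it was present at a low level only. dod-23 had 0 and 0 reads in adr-2(-) inputs and 2 and 7 reads in control inputs. Where 3 reads amounted to 19.2 and 26.7 normalised counts in the adr-2(-) inputs, no fold is given for dod-23.

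dod-21 was listed at 0 in all 8 libraries. Of 34 windows of 100 bases (the length of a read) taken every 25 bases along its exons, 5 occurred once in the genome, and the other 29 were found letter for letter in the adjoining CUB-like gene cld-1. cld-1 was also listed at 0 in all 8 libraries. Since the authors counted only reads with a single location, reads from most of either gene would have been left out, and the zeros do not show that dod-21 was absent. For the other 8 members every window was found once in the genome.

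Per kilobase of exon, dod-24 ranked highest of the members in adr-2(-) inputs at 3328 normalised counts (mean of 2), followed by dod-19 at 2434, dod-3 at 2395, dod-6 at 1157, dod-22 at 613 and dod-17 at 449. In control inputs dod-19 came first at 1096 per kilobase, followed by dod-3 at 1046, dod-6 at 872, dod-24 at 467, dod-22 at 110 and dod-17 at 70.8. In control inputs the replicates of dod-3 overlapped those of dod-19 and of dod-6, so its place there is not settled, while both dod-19 values lay above both dod-6 values and dod-24 lay below all 3. dod-24 therefore stood at the top in adr-2(-) inputs and in the fourth place in control inputs.

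The stretch of chromosome IV that runs over 41606 bases and holds dod-21, dod-24, dod-22 and dod-17 has 13 protein-coding genes, of which 10 are annotated as CUB-like. The mean was at least 10 for 7 of the 13, all CUB-like. All 7 had both adr-2(-) inputs above both control inputs, as had 38.3% of all tested genes. F55G11.8 had 589 and 570 normalised counts in adr-2(-) inputs, against 262 and 229 in control inputs. F55G11.2 had 211 and 160 in adr-2(-) inputs, against 60.2 and 50.1 in control inputs. F55G11.4 had 96.1 and 143 in adr-2(-) inputs, against 27.1 and 34.3 in control inputs, and F55G11.7 had 51.2 and 80.2 in adr-2(-) inputs, against 15.04 and 23.7 in control inputs. These genes lie next to dod-22, and their log2 changes were 1.24 to 1.91 with adjusted p-values of 0.0583 to 0.216 from limma, so dod-22 was the only called gene of the stretch. At the same total, 5 of the 7 stayed apart and higher, all but F55G11.7 and F55G11.8, against 9.21% of all tested genes.

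Beyond dod-17 the genes were mixed. The next tested genes, K10D11.3 and K10D11.6, are annotated as CUB-like too, and had 25.6 and 44.5 against 42.1 and 29.0 normalised counts and 25.6 and 35.6 against 24.1 and 52.7 (adr-2(-) inputs against control inputs). Their groups overlapped. Farther on, K10D11.5, also CUB-like, had 44.8 and 80.2 in adr-2(-) inputs, against 21.1 and 31.6 in control inputs, and K10D11.7 had 44.8 and 26.7 in adr-2(-) inputs, against 9.02 and 13.2 in control inputs, both apart and higher (both genes were named after their values were seen). Over the 3 nearest protein-coding genes on each side of every member, 41 genes in all, 16 were tested, 8 were apart and higher in adr-2(-) inputs, 3 were apart and lower (38.3% and 37.1% of all tested genes), and the median log2 change was 0.68. These neighbours include the 4 F55G11 genes given above. The one called among them was mua-3 near dod-6, which encodes an attachment protein of the epidermis and was lower (log2 change -2.79, adjusted p 0.0143 from limma).

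**Figure D3:**
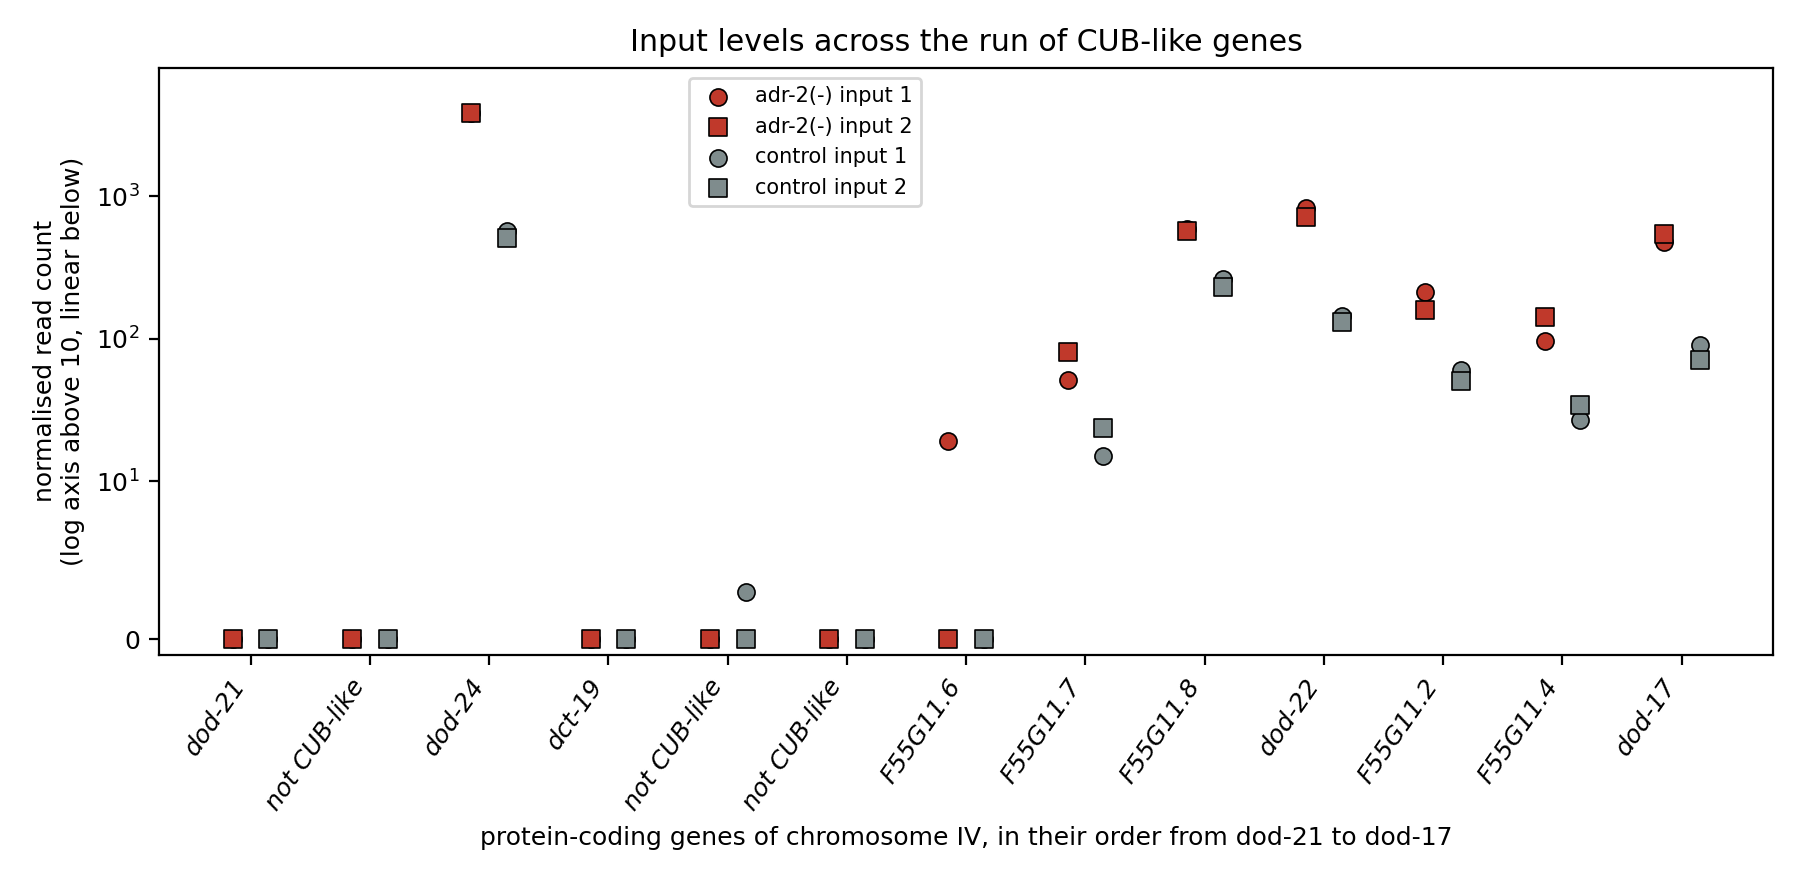
Normalised read counts in the 4 inputs (log axis above 10, linear below) of the 13 protein-coding genes from dod-21 to dod-17 on chromosome IV, in their order along the chromosome; red symbols are adr-2(-) inputs and grey symbols control inputs. In each of the 7 genes with a mean of at least 10, all CUB-like, both red symbols lie above both grey ones, and dod-24 shows the widest gap.

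Other genes of the same kind were examined through lists, chosen with earlier results of these data known. Of 17 CUB-like and infection response genes that are not members, 13 were tested. Of these 3 were called higher in adr-2(-) inputs (sysm-1, F35E12.6 and F35E12.10) and 0 lower, against 5.03% and 9.36% of all tested genes. The median log2 change of the 13 was 1.73 against 0.01 over all tested genes. At the same total it was 0.45 against -1.25. sysm-1 had 538 and 490 normalised counts in adr-2(-) inputs, against 93.3 and 89.6 in control inputs, a separation close to that of dod-22. irg-4, a CUB-like gene induced by infection, had 551 and 597 in adr-2(-) inputs, against 102 and 174 in control inputs, and missed the threshold (adjusted p 0.0764 from limma). Of all 49 genes annotated as CUB-like, a set added after the data were seen, 35 were tested. Of the 35, 4 were called higher (dod-22 among them) and 0 lower, against 5.03% and 9.36% of all tested genes. Both adr-2(-) inputs lay above both control inputs for 23 and below them for 2 (38.3% and 37.1% of all tested genes). At the same total 12 of the 35 were apart and higher, against 9.21% of all tested genes, and 12 apart and lower, against 68.8%. Their median log2 change was -0.08 against -1.25 over all tested genes.

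Other DAF-16 genes were spread on both sides of 0. Of 17 DAF-16-activated genes, the class to which dod-3 and dod-6 belong, 14 were tested. One was called higher, the catalase gene ctl-2 (log2 change 1.87, adjusted p 0.0247 from limma), and 2 were called lower, the small heat shock protein gene hsp-12.6 (-4.66, adjusted p 0.0279) and lea-1, whose product protects against water loss (-1.25, adjusted p 0.0257). Over all tested genes 5.03% were called higher and 9.36% lower. The median log2 change of the 14 was -0.63. sod-3, a superoxide dismutase gene widely used as a DAF-16 reporter, had 96.1 and 116 normalised counts in adr-2(-) inputs, against 33.1 and 58.0 in control inputs, and did not pass (adjusted p 0.269). Of 4 tested DAF-16-repressed genes other than dod genes, 0 were called. The yolk protein genes vit-2 and vit-5 had log2 changes of 0.89 and 0.58 (adjusted p 0.372 and 0.589 from limma). In contrast, gcy-18 and gcy-6 were at -3.14 and -0.07 (adjusted p 0.0856 and 0.964 from limma). The row of gcy-18 did not match its deposited mean, and its control IPs were listed at 0.

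The 16 tested regulators had a median log2 change of -1.75. Of them 11 were called lower in adr-2(-) inputs and 0 higher, against 9.36% and 5.03% of all tested genes. They included the insulin pathway kinase genes pdk-1 (-2.84, adjusted p 0.00838 from limma), age-1 (-1.75, adjusted p 0.0167) and akt-1 (-1.40, adjusted p 0.0325), and the p38 pathway genes sek-1 (-2.05, adjusted p 0.00916), pmk-1 (-1.38, adjusted p 0.0255) and atf-7 (-1.77, adjusted p 0.0178), which act upstream of infection response genes. The genes of DAF-16 and PQM-1 themselves lay in rows whose values did not match the deposited mean, where both control IPs were listed at 0, as did that of daf-2, and are given with that doubt. daf-2 and daf-16 count among the 11. pqm-1 was listed at 205 and 249 normalised counts in adr-2(-) inputs, against 286 and 314 in control inputs, with a log2 change of -0.40 (adjusted p 0.475 from limma). daf-16 was listed at 64.03 and 125 in adr-2(-) inputs, against 974.6 and 917 in control inputs (log2 change -3.39, adjusted p 0.00838). elt-2, the GATA factor gene of the intestine, had 333 and 338 in adr-2(-) inputs, against 168 and 124 in control inputs (adjusted p 0.0687).

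Intestinal markers were compared in the same inputs. On the deposited scale all 9 markers had both adr-2(-) inputs above both control inputs, as had 38.3% of all tested genes. By limma 0 of 9 were called, where 5.03% of all tested genes were called higher and 9.36% lower. The median log2 change of the 9 markers was 1.02. Their summed level was 188040 to 208770 normalised counts in adr-2(-) inputs, against 71794 to 82572 in control inputs, or 2.57-fold, most of it from the protease gene asp-1. At the same total, which includes rrn-3.1, the summed level was 9032 to 10427 RPM in adr-2(-) inputs, against 8037 to 10659 RPM in control inputs, or 1.04-fold. On that scale 0 of 9 markers were apart and higher, against 9.21% of all tested genes, and 3 apart and lower, against 68.8%. Their median log2 change was -0.28, against -1.25 over all tested genes. dod-24, dod-22 and dod-17 were 2.93-fold, 2.31-fold and 2.6-fold higher on that scale. None of the 9 markers was at 0 in an input. The summed level of 4 body wall muscle genes was 9477 to 13511 normalised counts in adr-2(-) inputs, against 26359 to 27398 in control inputs, and lower at the same total too (526 to 585 RPM in adr-2(-) inputs, against 2951 to 3537 RPM in control inputs). That of 10 neuronal genes was 7140 to 7303 normalised counts in adr-2(-) inputs, against 5947 to 6250 in control inputs, with 3 genes apart and higher and 4 apart and lower, but 316 to 396 RPM in adr-2(-) inputs, against 666 to 807 RPM in control inputs, so its direction turned with the scaling. Their part in the dod values was not tested.

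**Figure D4:**
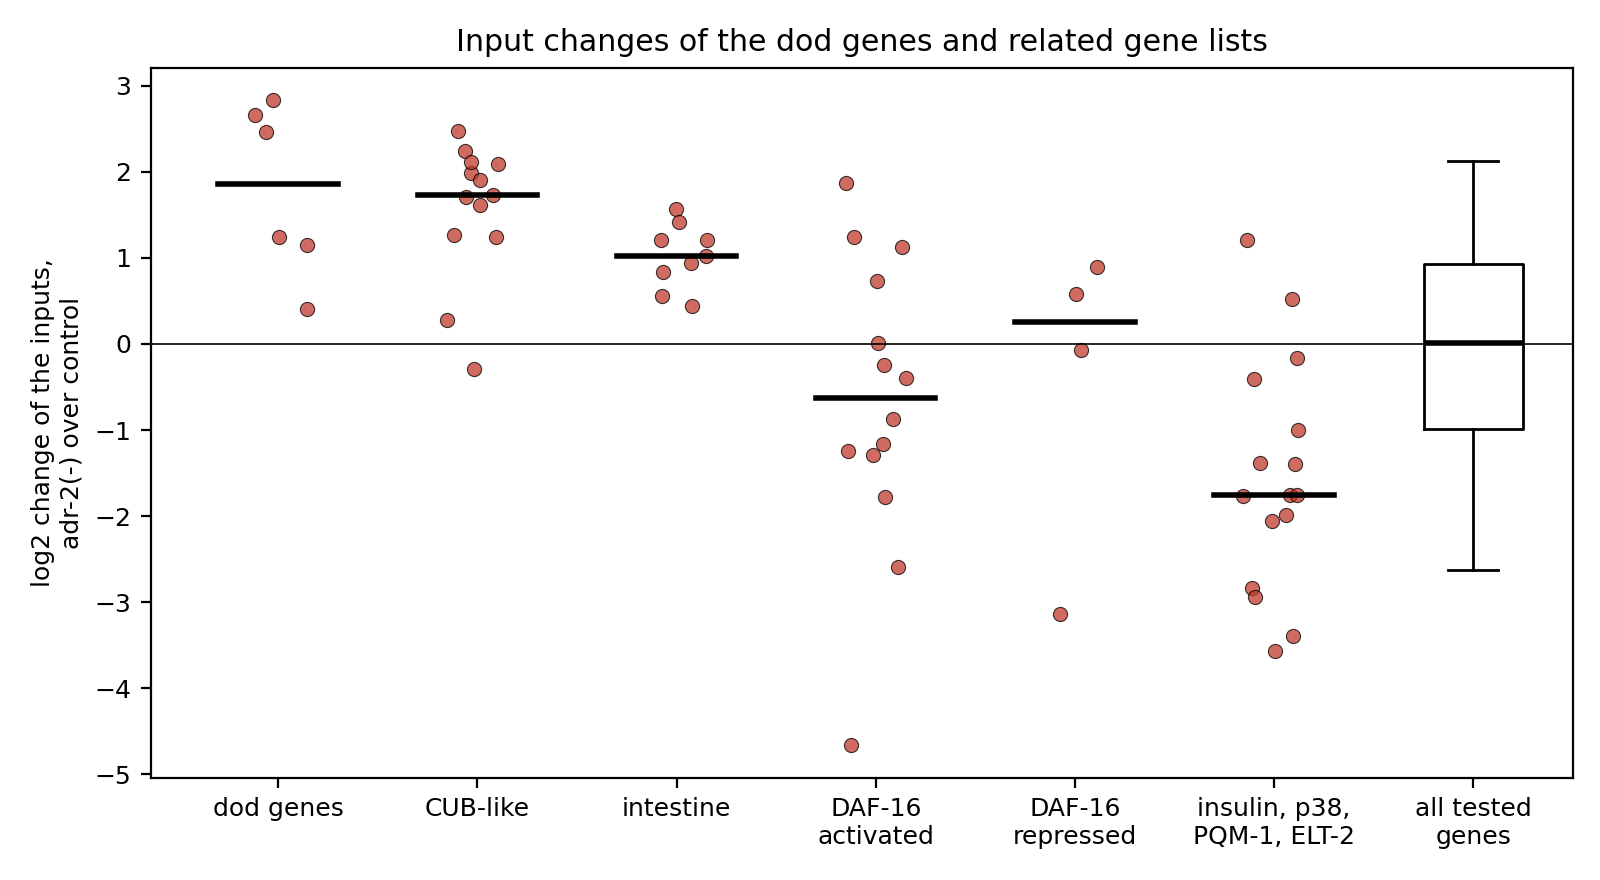
Log2 change of the inputs, adr-2(-) over control, on the deposited scale for the tested genes of each list (points) with the list's median (bar), beside a box of all 13276 tested genes (line at the median, whiskers at the 5th and 95th percentiles). The dod genes (median 1.85) and the CUB-like genes (1.73) lie above the intestinal markers (1.02), whereas the DAF-16-activated genes (-0.63) and the regulators (-1.75) lie below 0.

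The genes whose profile over the 8 libraries was most like that of dod-24 were sought among 8033 genes with a mean of at least 100, by the root mean square distance of log2(value + 1) after each gene's own mean was taken away. The 5 nearest were cpr-5 (distance 0.36), cpr-9 (0.43), lys-4 (0.50), cpr-4 (0.54) and ilys-5 (0.55), against a median distance of 2.43 over all candidates. cpr-4, cpr-5 and cpr-9 encode cathepsin B-like or papain-like proteases, and lys-4 and ilys-5 lysozymes. cpr-5 had 3170 and 3465 normalised counts in adr-2(-) inputs, against 334 and 416 in control inputs. ilys-5 had 1121 and 1122 in adr-2(-) inputs, against 105 and 97.5 in control inputs. Of the members, dod-17 was the nearest to dod-24 (distance 0.90, 42nd), followed by dod-22 (0.96, 73rd), dod-3 (1.11), dod-19 (1.28) and dod-6 (2.45). Likeness is given as a description over 8 libraries and was chosen on the values of dod-24 itself.

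The IPs were compared to ask whether the loss of adr-2 came with more or less dod RNA beside neural ADR-1. By limma 0 of 6 members were called in either direction, where 1.53% of all tested genes were called higher and 0% lower, and at an unadjusted p under 0.05 the counts over all genes were 288 and 12. The edgeR and DESeq2 tests on the recovered reads called 0 of 6 as well. Both adr-2(-) IPs exceeded both control IPs for 3 members, dod-24, dod-22 and dod-19, against 6.45% of all tested genes, and for 0 members was it the other way round, against 8.43%.

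The difference between the IPs lay almost wholly in the libraries numbered 2. Of the IPs, adr-2(-) IP 2 was the shallowest, at 20950841 recovered reads, with rrn-3.1 at 13.9% of them. The other IPs had 45578008 to 79185012 reads, with rrn-3.1 at 43.1% to 49.6%. Whether this has a part in the difference was not tested. In adr-2(-) IP 1 and control IP 1, dod-24 had 228 and 216 normalised counts, dod-17 127 and 131, dod-19 819 and 726, dod-22 23.1 and 17.9, dod-3 79.9 and 81.5 and dod-6 1397 and 1536, ratios of 0.91 to 1.29. In adr-2(-) IP 2 and control IP 2, dod-24 had 391 and 21.3, dod-17 50.6 and 6.28, dod-19 953 and 399, dod-22 97.3 and 19.6, dod-3 346 and 60.8 and dod-6 1422 and 588, ratios of 2.39 to 18.4. The log2 change of dod-24 between the IPs was 2.11 (SE 0.88, adjusted p 0.982 from limma). Without control IP 1 it was 3.75, and dod-24, dod-17 and dod-19 were then called higher (adjusted p 0.00172, 0.026 and 0.047 from limma), with 542 of all 13276 genes higher and 161 lower. Without control IP 2 it was 0.47, and 0 members were called.

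IP and input were compared in each strain to ask whether dod transcripts were over- or under-represented with neural ADR-1. In adr-2(-), 4 of 6 members were called lower in the IP and 0 higher, where 10.4% of all tested genes were called lower and 14.3% higher. dod-22 had 23.1 and 97.3 normalised counts in adr-2(-) IPs, against 826 and 713 in adr-2(-) inputs (log2 change -3.98, SE 0.64, adjusted p 0.00492 from limma). dod-24 had 228 and 391 in adr-2(-) IPs, against 3861 and 3839 in adr-2(-) inputs (-3.68, SE 0.88, adjusted p 0.0193). Both genes were far lower in each IP than in either input, and 5 of 6 members, all but dod-6, had both adr-2(-) IPs below both adr-2(-) inputs, against 30.7% of all tested genes. dod-3 (-2.59, SE 0.64, adjusted p 0.022) and dod-19 (-1.94, SE 0.35, adjusted p 0.00785) were called lower as well, and dod-17, at 127 and 50.6 in adr-2(-) IPs against 480 and 543 in adr-2(-) inputs, was not (-2.66, SE 1.14, adjusted p 0.123).

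dod-6 went the other way. It had 1397 and 1422 normalised counts in adr-2(-) IPs, against 775 and 570 in adr-2(-) inputs, and was apart and higher in the IPs (log2 change 1.08, SE 0.46, adjusted p 0.122 from limma), as were 39.1% of all tested genes. At the same total this change was 2.26 and passed the test (adjusted p 0.00565), and with the 10 most abundant genes left out it was 2.03 (adjusted p 0.00526). Such calls were common there, with 4888 of 13276 genes called higher and 301 lower at the same total, and 4647 of 13266 called higher and 529 lower without the 10 most abundant genes. In those scalings dod-24 and dod-22 were still called lower, and dod-3 and dod-19 were not (log2 changes of -1.41 and -0.76 at the same total). Fewer members were called when any of the 4 adr-2(-) libraries was left out, with dod-22 among them each time. Such a fit leaves 1 library in a group, and calls over all tested genes fell in it too. Over the alternatives run, the log2 change was -4.99 to -2.805 for dod-22 and -4.07 to -2.5 for dod-24. It was -3.64 to -1.41 for dod-3 and -2.05 to -0.76 for dod-19. Of 10 neuronal markers 6 were called higher in adr-2(-) IPs, and of 9 intestinal markers 4 were called lower and 0 higher. Over all tested genes 14.3% were called higher and 10.4% lower.

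In the control, 0 of 6 members were called between IP and input by limma, where 2.84% of all tested genes were called lower and 0.535% higher, with 1326 lower and 1124 higher at an unadjusted p under 0.05. Both control IPs lay below both control inputs for 4 members, dod-24, dod-22, dod-19 and dod-3, against 24.6% of all tested genes, and above them for dod-6, against 26.1%. dod-22, with 17.9 and 19.6 normalised counts in control IPs, against 144 and 132 in control inputs, came nearest (log2 change -2.82, SE 0.64, adjusted p 0.0548). dod-19 (-1.51, adjusted p 0.0624) and dod-3 (-2.58, adjusted p 0.0745) followed. DESeq2 on the recovered reads called 4 members lower, dod-24, dod-22, dod-3 and dod-19 (adjusted p 0.0424, 0.000334, 0.00143 and 0.0174), with 755 of all 13276 genes lower and 642 higher. For dod-24 and dod-17 the 2 control IPs disagreed: dod-24 stood at 0.40 and 0.04 of the mean control input, and dod-17 at 1.62 and 0.08. Without control IP 1, dod-24, dod-17 and dod-19 were called lower (adjusted p 0.000531, 0.0258 and 0.00667 from limma), with 457 of all genes lower and 173 higher. Without control IP 2, dod-19 was called lower and dod-6 higher (adjusted p 0.0377 and 0.0286), with 880 of all genes lower and 1146 higher. Without either adr-2(-) IP, dod-22 and dod-3 were called lower in the control (adjusted p of 0.00668 to 0.0137 from limma), with 607 to 635 of all genes lower and 135 to 137 higher.

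**Figure D5:**
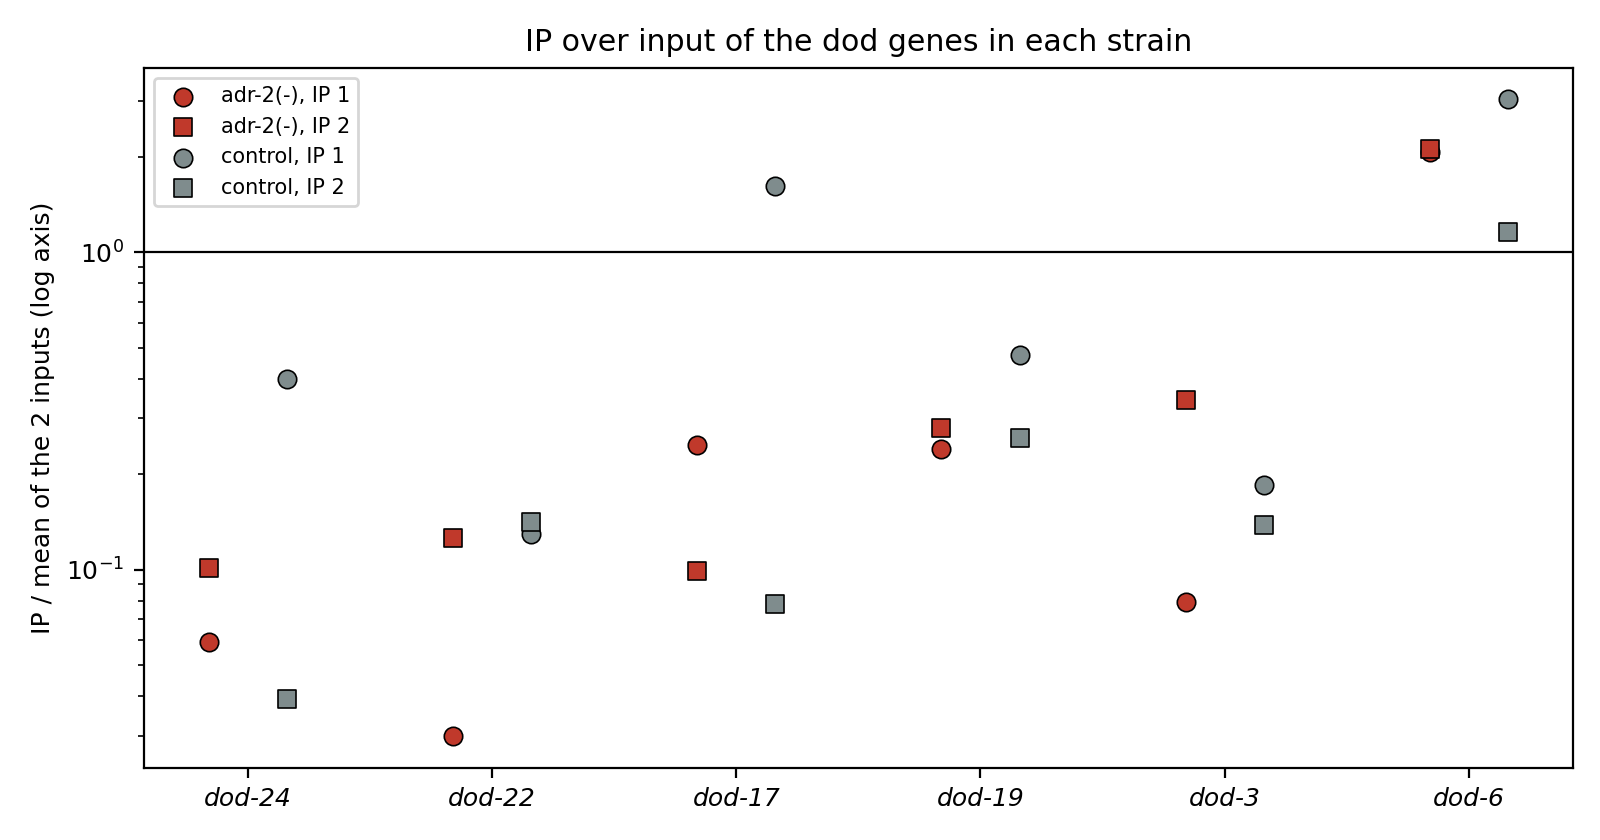
Each IP value divided by the mean of the 2 inputs of its strain (log axis) for the 6 tested dod genes, adr-2(-) in red and control in grey, circles for IP 1 and squares for IP 2. All points of dod-24, dod-22, dod-19 and dod-3 lie below 1 and all points of dod-6 above 1, and the 2 control IPs of dod-24 and dod-17 lie far apart.

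The ratio of ratios sets the IP against the input of each strain. For 0 of 6 members did it pass an adjusted p of 0.001, the threshold of the study, where 1.37% of all tested genes were called higher and 0% lower, with 1413 and 956 at an unadjusted p under 0.05. The edgeR and DESeq2 tests on the reads called 0 of 6 there too. The log2 ratios of ratios were -0.72 for dod-24 (95% interval -3.56 to 2.11), -1.16 for dod-22 (-3.22 to 0.89), -1.27 for dod-17 (-4.96 to 2.43), -0.44 for dod-19 (-1.58 to 0.70), -0.01 for dod-3 (-2.07 to 2.06) and 0.16 for dod-6 (-1.34 to 1.66). Without control IP 2 the value for dod-24 was -2.36 with an adjusted p of 0.0411 from limma. Each interval is wide and spans 0, so neither a change of several-fold nor equal representation could be told for dod-24, dod-22 or dod-17.

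dod-18, the further gene with the dod name, is annotated as a nucleotide pyrophosphatase. It had 57.6 and 62.3 normalised counts in adr-2(-) inputs, against 54.1 and 73.8 in control inputs, with a log2 change of -0.08 (SE 0.63, adjusted p 0.945 from limma), and its groups overlapped.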

How the data were processed

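Per the methods of the study and the labels, the authors selected poly(A) RNA, sequenced stranded single-end libraries, aligned reads to ce11 (WormBase WS275) with STAR (2.7.8a in the submitters' processing notes), retained uniquely placed reads and assigned them to genes with featureCounts. The deposited signal per gene is the read count divided by the authors' size factor. The deposited table also holds the authors' mean and their DESeq2 output: a log2 ratio of ratios, its error, a test statistic (a score), a p-value and an adjusted p-value. Of these only the mean was used, to check rows. In 223 rows it differed from the mean of the 8 values by more than 0.02 and 0.1%.

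Reads were recovered by dividing by the value of 1 read. In matched rows 100.0% of values came out whole within a tolerance of at least 0.02 reads. The tolerance widened with the rounding of the deposited values and with the count, so values at the highest counts could not fail. Recovered reads ranged from 2595323 to 79185012 per library, so a share in an input is less precise than in an IP. Genes whose values averaged 10 or more were fitted with limma (3.58.1 in R 4.3.3, trended eBayes) as log2(value + 1), which understates changes of low genes, with 4 group means over all 8 libraries. P-values were adjusted by Benjamini-Hochberg over all 13276 genes. Calls needed an adjusted p under 0.05 (0.001 for the ratio of ratios) and a log2 change of at least 1 in size. Replicates are the biological replicates of the labels.

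The members, the lists and the named genes (members, their 3 nearest genes on each side, the 5 genes nearest to dod-24 in profile) were chosen with earlier results of these data known. Promoters were cut from the WBcel235 genome at annotated gene starts. From the lists, hsp-16.49 was not matched and is not analysed here. Alternatives were replicate blocks, pseudocounts of 0.1 and 10, other filters and scalings, edgeR (4.0.16) and DESeq2 (1.42.0) on the reads, edgeR on thinned reads, another threshold and each library left out. Groups were adr-2(-) minus control, and IP minus input. Tests were checked on simulated data. Python 3.11.15, pandas 2.3.3 and scipy 1.17.1 were used.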

Additional observations from a re-analysis of the deposited data

How the results depend on the processing

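Between the inputs 1 member was called in the main analysis. The count was 2 with a replicate block by number (dod-24 joined dod-22), 2 with a pseudocount of 10, 3 with DESeq2, 5 with the 4 inputs alone, and 0 at the same total, at the same total without the 10 most abundant genes, with edgeR on thinned reads and at an adjusted p under 0.001. Leaving out single libraries gave 0 to 4. Without a filter the count stayed at 1, but dod-22 was lost (adjusted p 0.0813 from limma) and the gene was dod-23, with 0 and 0 reads in adr-2(-) inputs against 2 and 7 in control inputs, too few to compare. Between the IPs leaving out single libraries gave 0 to 3, and no other alternative gave a call. For IP against input in adr-2(-) the count of 4 became 0 at an adjusted p under 0.001 and ranged from 1 to 6 with single libraries left out. For IP against input in the control the count of 0 became 2 with a replicate block by number, 1 with a mean of at least 50, at the same total, with TMM and with edgeR, 4 with DESeq2, and 0 to 3 with single libraries left out. The ratio of ratios gave 0 in all alternatives run. Deviations of same-numbered libraries correlated at 0.46 between adr-2(-) IPs and control IPs, so the IPs of one number varied together in part. In the other 5 pairs of groups the correlations were -0.01 to 0.04. The main fits did not take the numbers as pairs. Between the IPs, the block by number called 0 members, as the main fit did. A replicate block within strain changed no count of calls for IP against input or the ratio of ratios, and cannot give the comparisons between strains.

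Directions turned as follows. In the inputs at the same total, dod-6 was at -0.89, dod-3 at -0.055 and dod-19 at -0.14, and dod-6 at -0.52 without the 10 most abundant genes. The log2 ratio of ratios at the same total was 0.71 for dod-24, 0.27 for dod-22, 0.18 for dod-17, 1.42 for dod-3 and 0.99 for dod-19, and without the 10 most abundant genes 0.10 for dod-24, 0.81 for dod-3 and 0.38 for dod-19. For dod-3, whose main ratio was -0.01, it was 0.005 with TMM, 0.39 with edgeR, 0.40 with DESeq2 and 0.54 with edgeR on thinned reads. With single libraries left out, the log2 change between the IPs ran from -0.70 to 3.48 for dod-17 and from -0.12 to 1.261 for dod-6, that of IP against input in the control from -3.48 to 0.70 for dod-17, and the ratio of ratios from -2.36 to 0.92 for dod-24, from -3.36 to 0.82 for dod-17, from -0.53 to 0.86 for dod-6 and from -1.06 to 1.04 for dod-3. The lowest and highest of these came without a control IP, apart from the ratio of dod-3, which turned without an adr-2(-) IP. The cause of these turns was not tested.

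Depth limits the inputs most: 3 reads amounted to 19.2 and 26.7 normalised counts in adr-2(-) inputs, against 9.02 and 7.90 in control inputs, so dod-20 and dod-23 could not be compared there. Uncertain scaling between the inputs limits dod-19, dod-3 and dod-6.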

Other observations

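Of the 35 tested genes annotated as CUB-like, 34 had a log2 change above 0 between adr-2(-) and control IPs (median 0.84), against 6282 of all 13276 genes (median -0.04). Of them 13 had both adr-2(-) IPs above both control IPs, against 6.45% of all tested genes, and 0 both below, against 8.43%. By limma 0 of 35 were called, where 1.53% of all tested genes were called higher and 0% lower. For the dod members the difference between the IPs lay almost wholly in the libraries numbered 2, as given above. Among the other CUB-like genes, F35E12.6 had 172 and 216 normalised counts in adr-2(-) IP 1 and control IP 1. In adr-2(-) IP 2 and control IP 2 it had 345 and 56.2. For C17H12.8 the libraries numbered 1 differed too, at 61.0 and 36.8, beside 306 and 46.0 in those numbered 2. How far the count of 34 rests on the libraries numbered 2 was not tested. Other lists were also above 0 between the IPs, with 9 of 10 neuronal genes (median 0.66) and 4 of 4 body wall muscle genes (median 0.79). The 35 include dod-17, dod-22 and dod-24.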
